A study of Mus musculus with 24 samples.

Results

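The lower small intestine epithelium of 12-month-old mice was compared with that of 4-month-old mice by RNA-seq, in 3 libraries of each age, which were chosen by their labels and make up 6 of the 24 libraries of the study. The study asked whether aging of the intestine, in which DNA methylation changes, is also accompanied by changes in gene expression, and it sampled the upper small intestine (USI), the lower small intestine (LSI) and the colon at 4, 12 and 24 months. All mice carried the Lgr5-EGFP-IRES-CreERT2 allele, which places a green fluorescent protein and an inducible Cre recombinase under the control of the stem cell gene Lgr5, and no mouse received a treatment. The small intestine was divided into an upper and a lower section, and the cells of the lower section were dissociated, pooled and lysed without sorting, so that every library holds all cells of the preparation. Numbers of animals per pool are given in the study for its sorted cells, and were not taken to hold for the unsorted RNA pools. The p-values below refer to the variation between pools of the same section and age, estimated over all 24 libraries and not over the 6 alone. This variation may be partly or wholly technical. Whether pools of different sections share animals is not known, and they were treated as independent.

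The small-intestinal epithelium is renewed from Lgr5-positive stem cells at the base of the crypts, whose progeny divide and become absorptive enterocytes or secretory Paneth, goblet, enteroendocrine and tuft cells. The lower section includes the ileum, the site where bile acids and vitamin B12 are taken up again, and intraepithelial lymphocytes lie between its epithelial cells. Immediate early genes such as Fos and Egr1 are switched on within minutes of a growth signal, stress or the dissociation of a tissue, from transcription factors that already wait in the cell.

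The deposited values are read counts per gene, and the 6 libraries held 35068728 to 36419152 counts. Levels are given below as CPM, a library's counts scaled to a common normalized total, which allow a gene to be compared between libraries but not with another gene. Fabp6, the ileal bile acid binding protein gene, had 513 to 1348 CPM in these libraries and at most 2.01 CPM in the 6 USI libraries of the same ages, and the epithelial gene Epcam had 1532 CPM or more, which are the markers of the labelled tissue. The 4-month libraries differed more among themselves than the 12-month libraries did. The chi-square of their counts per degree of freedom was 108 to 321 between pairs of 4-month libraries, largest between B and C, and 25.8 to 53.3 between pairs of 12-month libraries. Y-linked genes had 4915 counts in the 4-month library B and at most 22 in any other library of the comparison. That library thus held cells of male mice, and sex was not matched between the ages. The count column of the 4-month library C carried a code of the same form as that of the 4-month colon library B, and the labels were followed. Mitochondrial genes took 11.5% to 14.2% of the counts at 12 months and 12.3% to 13.9% at 4 months.

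Of 17491 genes tested, 9 were significantly upregulated at 12 months and 1 was significantly downregulated (edgeR quasi-likelihood test, Benjamini-Hochberg adjusted p under 0.05), which is 0.0515% and 0.00572% of the genes and 0.0572% together. The upregulated genes were Hbegf, Egr2, Atf3 and Fosb, which belong to the immediate early response, Plk3, a stress-responsive kinase gene, Herpud1, a gene of the endoplasmic reticulum stress response, Ddr2, a collagen receptor gene, Car1, a carbonic anhydrase gene of the colon, and Serpinb5, which encodes a member of the serpin family. The downregulated gene was Rps4y2, a copy of the gene of ribosomal protein S4. At an unadjusted p under 0.05 there were 376 genes higher and 344 lower, and the libraries of the 2 ages did not overlap in 644 genes that were higher (3.68%) and 578 that were lower (3.3%). The median log2 fold change of all genes was -0.01. All 10 genes had no overlap between the ages, and all 10 kept their direction in each of 17 alternative analyses. The number of these 10 that passed was less steady. It became 4, 5 and 3 without the 12-month library A, B or C, where 1 further gene, Tctex1d2, passed without A, and it became 1, namely Rps4y2, without any one of the 4-month libraries. It was also 1, Rps4y2, without the 4-month and 24-month B libraries of each section, which held Y-linked counts, 5 when the 8 LSI libraries were fitted alone and 1, Plk3, when the 6 libraries were fitted alone.

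**Figure D1:**
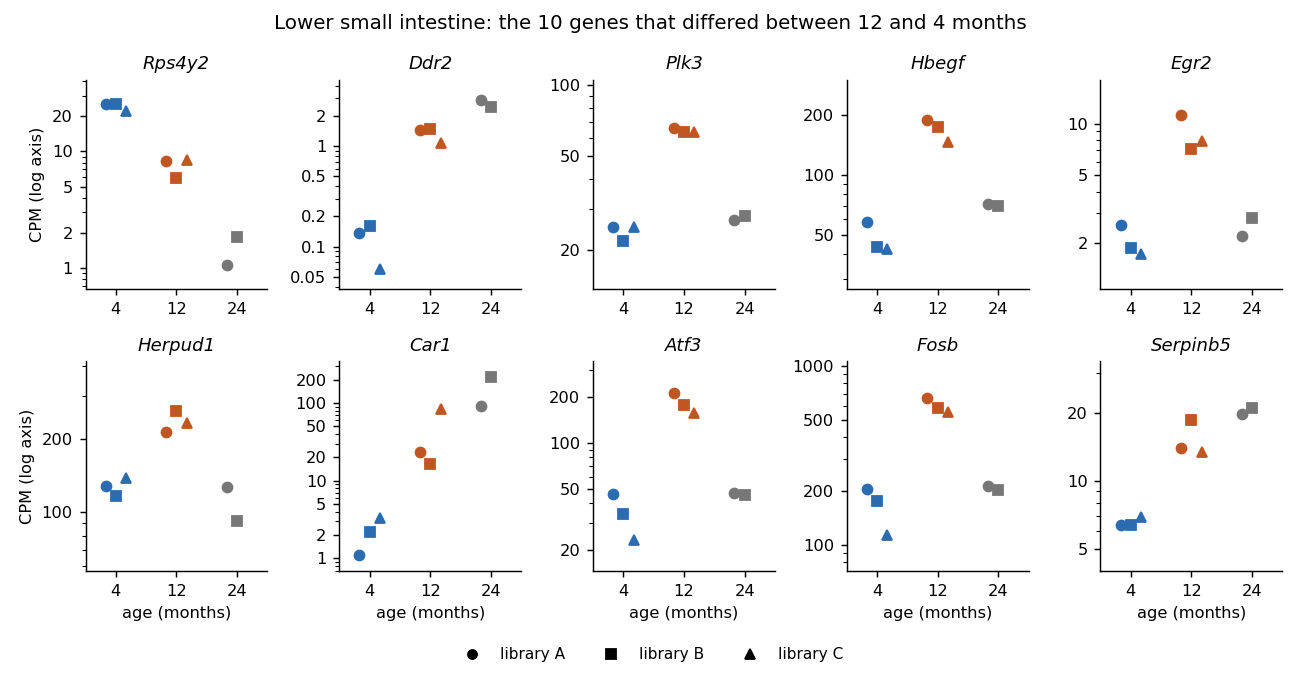
Level of the 10 genes that passed the test, in CPM on a log axis, in each LSI library at 4 months (blue), 12 months (orange) and 24 months (grey), with the marker shape giving the library letter. In each panel the 3 libraries of 12 months lie apart from the 3 of 4 months, and the 24-month libraries, which were not part of the comparison, are shown beside them.

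Of the 38 gene lists described here, the immediate early and dissociation stress genes held the most genes that passed. The lists were chosen with earlier results of these data known, so the shares below describe the genes and are no test. Of 24 genes in this list, all of which were tested, 4 rose (Hbegf, Egr2, Atf3 and Fosb), against 0.0515% of all genes that were called higher. In 17 of the 24 (70.8%) the 12-month libraries all lay above the 4-month libraries, against 3.68% of all genes, and 16 of the 24 were higher at an unadjusted p under 0.05, against 2.15%. The median log2 fold change was 0.71, and Myc was the single member with a negative value. The summed level of the 24 genes was 4745, 3730.3 and 3563 CPM in the 4-month libraries A, B and C and 7644, 7450.3 and 6608 CPM in the 12-month libraries. Every 12-month library thus held more of these transcripts than every 4-month library. The 24-month libraries, which were not compared here, held 4284 and 4295 CPM, inside the range of 4 months. Without 1 library the 4 calls became 0, 1 (Egr2) and 1 (Hbegf) when the 12-month A, B or C was left out, and 0 when any one 4-month library was left out.

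Hbegf (ENSMUSG00000024486, chr18:36664583-36675459, minus strand, build mm9 here and for the genes below) encodes a membrane-anchored ligand of the EGF receptor. It had 58.0, 43.2 and 42.7 CPM in the 4-month libraries A, B and C and 187, 173 and 147 CPM in the 12-month libraries. Its mean rose 3.52-fold, from 48.0 ± 8.71 to 169 ± 20.5 CPM (SD, n = 3 each; log2 fold change 1.82, standard error 0.28, edgeR adjusted p = 0.015). The ages were far apart, with library C the lowest at either age.

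The transcription factor gene Egr2 (ENSMUSG00000037868, chr10:66998223-67004936, plus strand), a zinc finger gene of the growth factor response, had 2.54, 1.86 and 1.71 CPM at 4 months and 11.3, 7.11 and 7.94 CPM at 12 months. It rose 4.31-fold (log2 fold change 2.11, standard error 0.33, edgeR adjusted p = 0.015). Atf3 (ENSMUSG00000026628, chr1:192994175-193007219, minus strand) encodes a stress-induced factor of the ATF/CREB family. Its level was 46.4, 34.4 and 23.2 CPM at 4 months, lowest in library C, and 212, 177 and 157 CPM at 12 months. This is a rise of 5.25-fold (log2 fold change 2.39, standard error 0.41, edgeR adjusted p = 0.0321). Fosb (ENSMUSG00000003545, chr7:19888070-19895394, minus strand) encodes a subunit of the AP-1 transcription factor. The 4-month libraries held 205, 176 and 114 CPM of it and the 12-month libraries 663, 579 and 553 CPM, a 3.62-fold rise (log2 fold change 1.86, standard error 0.33, edgeR adjusted p = 0.0435). In all 4 genes library A was the highest at either age.

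The other 20 members did not pass after adjustment, and 12 of them had an unadjusted p under 0.05. Fos, the partner of Jun in AP-1, had 798, 713 and 587 CPM at 4 months and 1451, 1366 and 1237 CPM at 12 months (log2 fold change 0.95, edgeR adjusted p = 0.503). The orphan receptor gene Nr4a1 had 14.1, 10.2 and 7.36 and 47.0, 29.4 and 21.4 CPM (log2 fold change 1.63, edgeR adjusted p = 0.503). Klf6, a zinc finger transcription factor gene, had 220.0, 166 and 260.3 and 339, 349 and 329.6 CPM, with no overlap (log2 fold change 0.66, edgeR adjusted p = 0.306). Dusp1, which encodes a phosphatase that switches MAP kinases off, had 94.9, 81.9 and 46.6 and 202, 144 and 135 CPM, also without overlap. Zfp36, whose product speeds the decay of such transcripts, had 779, 520.3 and 522 and 1114, 1129 and 959.8 CPM. Fosl1 was near the limit of detection, with at most 0.436 CPM in any of the 6 libraries. The members whose libraries overlapped were Btg2, Myc, Klf4, Egr3, Socs3, Ier3 and Ier5. Of these, the growth regulator Myc had 78.2, 105 and 65.9 CPM at 4 months and 69.2, 70.0 and 73.2 CPM at 12 months.

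**Figure D2:**
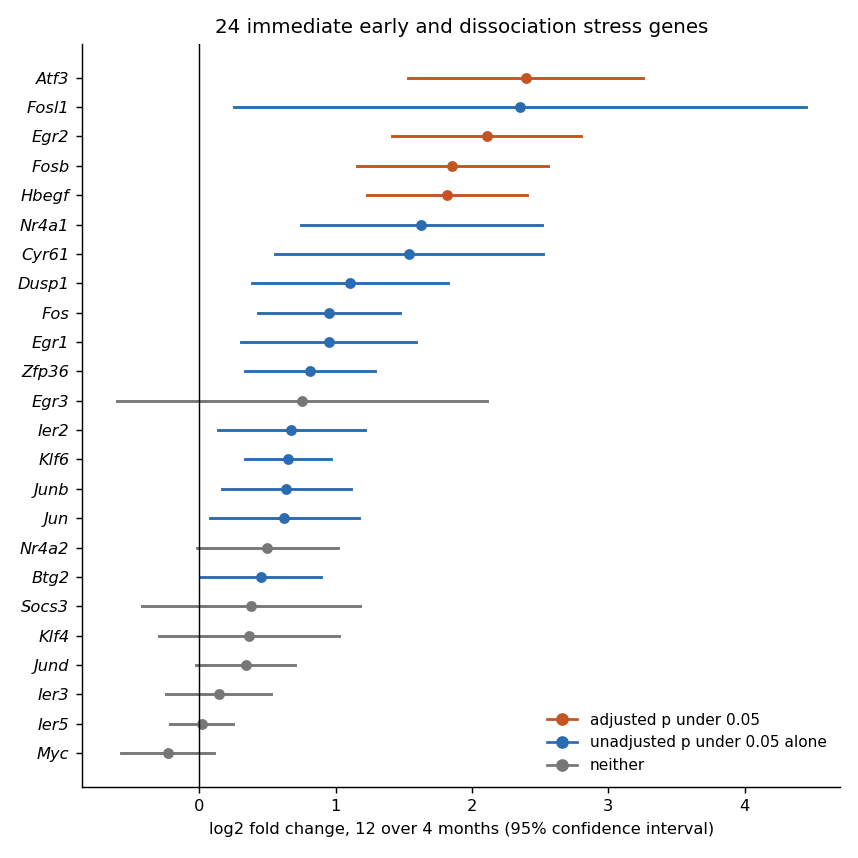
Log2 fold change at 12 months over 4 months of the 24 immediate early and dissociation stress genes, with 95% confidence intervals from the edgeR fit to all 24 libraries. The 4 genes in orange passed the adjusted test, those in blue had an unadjusted p under 0.05 alone, and only Myc lies left of 0.

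Immediate early promoters are known for short elements that bind factors present before the stimulus. These are the cAMP response element (CRE, TGACGTCA), bound by CREB and ATF proteins, and the CArG box, bound by serum response factor. RefSeq windows (build GRCm38.p6) were found for 18 of the 24 genes, and the 250 bases before the start were searched on both strands. A CRE was found in 2 of the 18 genes (11.1%) and in 1.77% of the 27025 genes with a window. A CArG box was found in 2 of the 18 (11.1%) and in 1.62% of all, and the AP-1 motif TGAGTCA in 0 of the 18 and 5.16% of all. These 4 matches are shown with the motif in capitals, 5′ to 3′ on the strand of the gene. They were chosen by the motif alone. All lie in members that were higher at 12 months at an unadjusted p under 0.05, as were 16 of the 24 members of the list. The CArG box of Egr2 ends 63 bases before a start, that of Zfp36 49 bases before it, and the CREs of Dusp1 and Btg2 end 136 and 159 bases before theirs. A match describes these letters and is not evidence of a bound site.
Egr2, chr10:67537454-67537543, plus strand: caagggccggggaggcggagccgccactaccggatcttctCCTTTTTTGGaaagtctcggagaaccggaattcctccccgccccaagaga
Zfp36, chr7:28379237-28379326, minus strand: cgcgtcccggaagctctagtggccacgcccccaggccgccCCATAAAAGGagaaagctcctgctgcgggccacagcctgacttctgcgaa
Dusp1, chr17:26508567-26508656, minus strand: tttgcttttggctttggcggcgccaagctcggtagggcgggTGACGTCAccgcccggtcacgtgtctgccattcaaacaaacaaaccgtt
Btg2, chr1:134079273-134079362, minus strand: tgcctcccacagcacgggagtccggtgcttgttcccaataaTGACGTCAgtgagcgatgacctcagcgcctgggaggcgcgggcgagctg

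Btg2, an antiproliferative gene, was the 1 of these 4 whose ages overlapped. It had 135, 82.8 and 106 CPM at 4 months and 158, 161 and 124 CPM at 12 months (log2 fold change 0.45, edgeR adjusted p = 0.982).

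Plk3 (ENSMUSG00000028680, chr4:116801260-116806568, minus strand), the gene of a polo-like kinase that responds to stress, was not in any list. It had 25.0, 21.8 and 25.0 CPM at 4 months and 66.0, 63.5 and 63.7 CPM at 12 months, and both ages were tightly grouped. It rose 2.69-fold (log2 fold change 1.43, standard error 0.22, edgeR adjusted p = 0.015) and was the 1 gene that still passed when the 6 libraries were fitted alone. The next genes by p that were higher, none of which passed, were Card6, Mafk and Csrnp1. Csrnp1, a nuclear protein gene, had 4.2, 3.53 and 5.65 CPM at 4 months and 15.5, 15.1 and 10.5 CPM at 12 months (log2 fold change 1.62, edgeR adjusted p = 0.0886). For Mafk, a small Maf transcription factor gene, the values were 54.5, 47.0 and 58.9 and 96.0, 94.5 and 85.4 CPM (log2 fold change 0.78, edgeR adjusted p = 0.0852). Card6 had a log2 fold change of 0.63 (edgeR adjusted p = 0.0582).

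Among 14 endoplasmic reticulum stress genes, which restore protein folding in the secretory pathway, 1 (Herpud1) rose and none fell. Of all genes, 0.0515% were called higher. In 4 of the 14 (28.6%) the 12-month libraries all lay above the 4-month ones, against 3.68% of all genes, and the median log2 fold change was 0.33. Herpud1 (ENSMUSG00000031770, chr8:96910338-96919277, plus strand), which acts in the degradation of misfolded proteins, had 129, 117 and 138 CPM at 4 months and 214, 261 and 233 CPM at 12 months (1.84-fold, log2 fold change 0.88, standard error 0.14, edgeR adjusted p = 0.015). Chac1, which encodes an enzyme of glutathione breakdown, had 7.26, 1.75 and 4.36 and 18.1, 17.5 and 21.3 CPM and did not pass (log2 fold change 2.09, edgeR adjusted p = 0.178). Atf4, the transcription factor gene upstream of Chac1, had 271, 243 and 268 and 329, 319 and 341 CPM, without overlap (log2 fold change 0.34, edgeR adjusted p = 0.629). The chaperone gene Hspa5 overlapped between the ages, with 561, 778 and 576 CPM at 4 months and 662, 863 and 864 CPM at 12 months. Of the heat shock list, 0 of 10 genes passed, and 2 of 10, Dnajb1 and Hspb1, had no overlap and were higher (20%, against 3.68% of all genes). Hspb1 rests on few reads, with 4, 2 and 4 counts at 4 months and 12, 8 and 12 at 12 months.

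Rps4y2 (ENSMUSG00000063171, chr6:148303178-148304120, plus strand) was the gene with the smallest p and the one that fell. It had 25.8, 25.3 and 22.3 CPM in the 4-month libraries A, B and C and 8.31, 5.86 and 8.51 CPM in the 12-month libraries, a fall of 3.23-fold (log2 fold change -1.69, standard error 0.18, edgeR adjusted p = 0.000671). The 24-month libraries held 1.05 and 1.86 CPM. It is also the gene that passed without each of the 6 libraries in turn. Rps4y2 did not pass when the 8 LSI libraries or the 6 libraries were fitted alone, or with a replicate block by letter. Its X-linked relative Rps4x, which encodes ribosomal protein S4 in most tissues, had 359, 387 and 267 CPM at 4 months and 340.3, 303 and 303 CPM at 12 months (log2 fold change -0.10, 95% confidence interval -0.39 to 0.20, edgeR adjusted p = 0.982). Reads from related gene copies can be divided between them in counting, so the level of Rps4y2 is uncertain.

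Ddr2 (ENSMUSG00000026674, chr1:171902439-172040632, minus strand) encodes a receptor tyrosine kinase for fibrillar collagen. It had 0.138, 0.159 and 0.0601 CPM at 4 months and 1.44, 1.5 and 1.09 CPM at 12 months, and 2.88 and 2.44 CPM in the libraries of 24 months. The fitted rise was 10.8-fold (log2 fold change 3.44, standard error 0.47, edgeR adjusted p = 0.00701). It rests on few reads, 5, 6 and 2 counts at 4 months against 50, 48 and 38 at 12 months, where both reads of a pair add to the count. Its call was lost whenever a 4-month library was left out, though its log2 fold change was 3.14 or more in all alternatives. Of the other 11 genes of collagen receptors and matrix, none passed. Col18a1, a basement membrane collagen gene, had 1.52, 1.62 and 1.8 CPM at 4 months and 2.3, 2.37 and 2.2 CPM at 12 months (log2 fold change 0.48, edgeR adjusted p = 0.963). The epithelial collagen receptor gene Ddr1 overlapped between the ages, with 104, 74.8 and 109 and 85.5, 96.4 and 91.5 CPM.

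Ddr2 is known from fibroblasts, and markers of stromal and muscle cells were also measured. Their 13 genes all had positive log2 fold changes, with a median of 0.75, and 0 passed. Their summed level was 25.2, 23.1 and 29.9 CPM at 4 months and 38.7, 28.7 and 46.8 CPM at 12 months, so that the 12-month library B lay within the range of 4 months. Vim added most to this sum in each library, with 10.3, 10.5 and 14.2 CPM at 4 months and 16.3, 13.0 and 14.6 CPM at 12 months. In 2 of the 13 (15.4%, against 3.68% of all genes), Des and Myh11, the 12-month libraries all lay higher. Both were near the limit of detection. Des had 4, 6 and 2 counts at 4 months and 14, 21 and 14 at 12 months. Myh11 had 0.221, 0.265 and 0.24 CPM at 4 months and 0.345, 0.374 and 0.4 CPM at 12 months. The collagen genes Col1a1 and Col3a1 had 0.138, 0.398 and 0.24 CPM and 0.718, 0.795 and 1.2 CPM at 4 months. At 12 months they had 0.288, 0.187 and 1.26 CPM and 0.863, 0.281 and 2.91 CPM, and both overlapped between the ages. Both were highest in the 12-month library C, whereas Ddr2 was lowest in that library among those of 12 months. No stromal gene was at 0 in all 6 libraries, and the part of stromal cells in the level of Ddr2 was not tested.

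Serpinb5 (ENSMUSG00000067006, chr1:108757750-108779925, plus strand), the maspin gene, had 6.4, 6.41 and 6.97 CPM at 4 months and 14.0, 18.7 and 13.5 CPM at 12 months. It rose 2.33-fold (log2 fold change 1.22, standard error 0.22, edgeR adjusted p = 0.0435), with 19.7 and 21.2 CPM at 24 months. Its call was lost whenever one of the 6 libraries was left out, as were those of Atf3 and Fosb.

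Car1 (ENSMUSG00000027556, chr3:14766217-14778459, minus strand), a carbonic anhydrase gene characteristic of the colon, had 1.1, 2.17 and 3.3 CPM at 4 months and 23.5, 16.6 and 84.7 CPM at 12 months. It rose by a log2 fold change of 4.25 (standard error 0.69, edgeR adjusted p = 0.0198), and library C carried much of it. Without that library Car1 did not pass and its log2 fold change was 3.20. The 24-month libraries held 92.7 and 214 CPM, and the 12-month colon had a mean of 7477 CPM. Of the 10 colon identity genes, Car1 was the 1 that rose, where 0.0515% of all genes were called higher. In 3 of the 10 (30%, against 3.68% of all genes), Car1, Aqp8 and Hoxb13, the 12-month libraries all lay higher. These genes could pass the low-count filter through the colon libraries alone, so the 2 shares are not comparable. Aqp8, a water channel gene, and Hoxb13 were under 1 CPM in all 6 libraries. Hoxd10, Hoxd11 and Hoxd12, which pattern the hindgut, were at 0 in all 6 libraries.

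To see how broadly colonic transcripts were present, the 50 genes with the largest ratio of 4-month colon to 4-month USI were taken, among genes of at least 20 CPM in the colon, without use of any LSI library. This list was chosen after the level of Car1 was seen. Of the 50, 1 passed, which was Car1, where 0.0515% of all genes were called higher. At an unadjusted p under 0.05, 24 were higher, where 2.15% of all genes were, and 0 were lower. In 18 (36%, against 3.68% of all genes) the 12-month libraries all lay above the 4-month ones. The median log2 fold change of the 50 was 1.06. These genes were chosen as high in the colon and could pass the low-count filter through the colon libraries alone. Hoxa10 and Pcdh17, both among the 18, had at most 0.403 and 0.23 CPM at 12 months and 0 at 4 months. The shares and the median are therefore not comparable with those of all genes. The summed level of the 50, as a share of the mean of the 12-month colon, was 0.542%, 0.919% and 0.432% in the 4-month libraries. In the 12-month libraries it was 1.11%, 0.911% and 1.62%, so the ages overlapped through the 4-month library B. In the 12-month library C, Car1 made up 27.5% of this sum and the insulin gene Ins2, which is among the 50, made up 18.2%. Over the other 48 genes, a choice made after these values were seen, the shares were 0.885%, 1.5% and 0.684% at 4 months and 1.63%, 1.36% and 1.45% at 12 months, so that library C then lay below library A. Of the 50 genes, 32 were highest in library A among the 12-month libraries, 5 in B and 13, Car1 included, in C. Abca12, a lipid transporter gene, was highest in C as Car1 was, with 1.88, 2.31 and 1.02 CPM at 4 months and 2.7, 2.21 and 5.63 CPM at 12 months. Tgm3, a transglutaminase gene, had 0.221, 0.106 and 0.12 CPM at 4 months and 3.91, 2.12 and 0.0571 CPM at 12 months, lowest in library C where Car1 was highest. The hindgut gene Hoxb13 had 0.0552, 0 and 0 CPM at 4 months and 0.69, 0.187 and 0.0571 CPM at 12 months, again lowest in library C, where it rests on 24, 6 and 2 counts in the 12-month libraries and 2, 0 and 0 at 4 months, so the lowest library of 12 months and the highest of 4 months hold the same count. Epithelium of the colon in the LSI preparations and expression of these genes in LSI cells cannot be told apart.

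**Figure D3:**
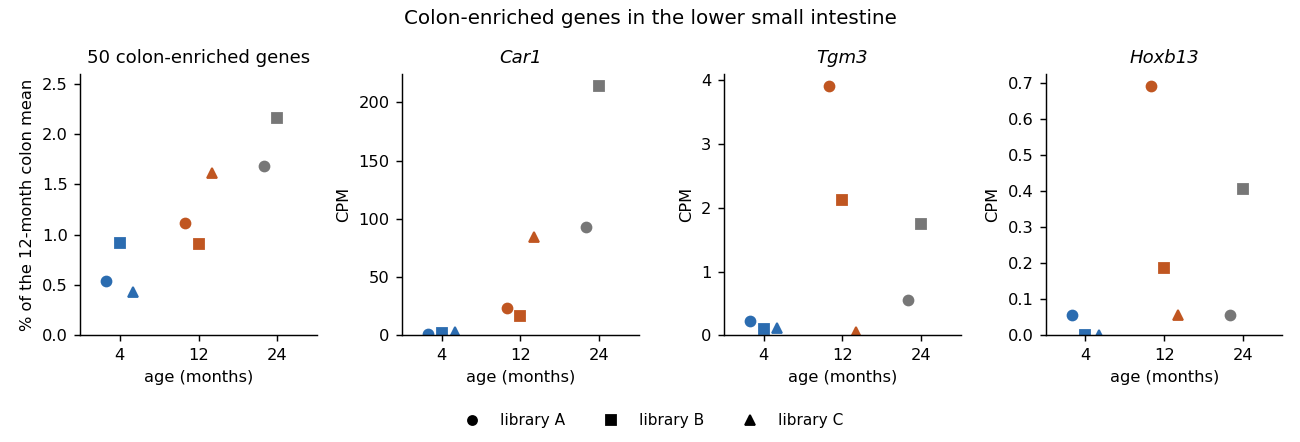
From left to right, the summed level of the 50 colon-enriched genes in each LSI library as a percentage of the 12-month colon mean, and the levels of Car1, Tgm3 and Hoxb13 in CPM, at 4, 12 and 24 months. Car1 is highest in library C among the 12-month libraries (84.7 CPM), and Tgm3 and Hoxb13 are highest in library A.

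Among the cell types of the epithelium, no marker gene passed the adjusted test in either direction. Tuft cell genes, which mark the chemosensory cells of the epithelium, showed the lowest median. All 10 tuft cell genes tested, of 11 in the list, had negative log2 fold changes, with a median of -0.68. In 4 of the 10 (40%), Dclk1, Avil, Alox5ap and Trpm5, the 12-month libraries all lay below the 4-month ones, against 3.3% of all genes, and 6 of the 10 were lower at an unadjusted p under 0.05, against 1.97%. Dclk1, a microtubule-associated kinase gene, had 22.3, 19.6 and 26.1 CPM at 4 months and 13.7, 15.1 and 10.2 CPM at 12 months (log2 fold change -0.80, edgeR adjusted p = 0.327). Trpm5, the cation channel gene of taste-like signalling, had 18.7, 13.3 and 26.4 and 13.1, 11.1 and 9.71 CPM (log2 fold change -0.78, edgeR adjusted p = 0.924). The summed level of the list was 104, 77.9 and 145 CPM in the 4-month libraries A, B and C and 74.1, 73.2 and 55.9 CPM in the 12-month libraries, and 88.5 and 69.7 CPM in those of 24 months. In such bulk samples fewer cells of a type and less RNA per cell cannot be told apart.

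Stem cell and proliferation genes had mostly negative log2 fold changes, and 0 of 19 and 0 of 20 passed. The median log2 fold change was -0.24 for the stem cell list, where 1 of 19 members was positive, and -0.23 for proliferation, where 0 of 20 were. The stem cell gene Lgr5 had 52.8, 45.6 and 35.0 CPM at 4 months and 49.0, 30.1 and 29.2 CPM at 12 months (log2 fold change -0.30, 95% confidence interval -0.92 to 0.32, edgeR adjusted p = 0.982). Olfm4, another stem cell gene, had 2077, 2708 and 1415 and 1635, 1237 and 1359 CPM. Ascl2, the transcription factor gene of the stem cell state, had 18.3, 16.4 and 11.7 CPM at 4 months and 10.3, 9.63 and 6.94 CPM at 12 months, which was the 1 stem cell gene without overlap (log2 fold change -0.79, edgeR adjusted p = 0.818). In the 4-month library B the summed proliferation genes were at 2903 CPM, while the other 5 libraries lay between 1661 and 2069 CPM.

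Enterocyte genes went the other way and with a wide spread among the 4-month libraries. Of 21 genes, 20 had positive log2 fold changes, with a median of 0.21, 0 passed and 0 were without overlap. The summed level was 21837, 7105 and 51396 CPM in the 4-month libraries A, B and C and 24439, 42396 and 29777 CPM in the 12-month libraries. The range of 4 months therefore enclosed that of 12 months. Sis, the sucrase-isomaltase gene of the brush border, had 1543, 530.1 and 5151 CPM at 4 months and 2876, 4934 and 3437 CPM at 12 months. Of the 9 ileal genes, 0 passed and 2 (22.2%, against 3.68% of all genes) were higher without overlap. Fabp6 had 932, 513 and 1076 and 1269, 1194 and 1348 CPM (log2 fold change 0.60, edgeR adjusted p = 0.982), and Nr1h4, the bile acid receptor gene, 97.0, 98.9 and 82.9 and 109, 120.3 and 127 CPM (log2 fold change 0.35, edgeR adjusted p = 0.818). Slc10a2, the bile acid transporter gene, and Fgf15, a hormone gene induced by bile acids, overlapped between the ages, with 23.9, 12.5 and 46.6 and 41.0, 1.17 and 28.2 CPM at 4 months and 47.2, 49.3 and 42.0 and 17.6, 14.2 and 15.6 CPM at 12 months.

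Paneth cell genes had positive log2 fold changes in 14 of 15, with a median of 0.22, and 0 passed. Lyz1, the lysozyme gene, had 12259.8, 9299 and 7855 CPM at 4 months and 14998, 8377 and 12230.3 CPM at 12 months, so the libraries overlapped. Counts of the defensins, a family of near-identical genes, are uncertain. None of the 13 goblet and 14 enteroendocrine genes passed, and their medians were 0.08 and 0.08.

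T cell and intraepithelial lymphocyte genes were positive in 14 of 15 members, with a median of 0.82, and 0 passed. Their summed level was 157, 95.2 and 478 CPM in the 4-month libraries A, B and C and 448, 341 and 431 CPM in the 12-month libraries. The 4-month library C thus lay above all libraries of 12 months, and A and B lay below them. Gzmb, the granzyme B gene, had 16.1, 12.3 and 51.9 CPM at 4 months and 58.2, 35.8 and 53.9 CPM at 12 months. None of the markers of B and plasma cells (median -0.29), myeloid cells (0.14), endothelium (0.08), enteric neurons and glia (0.01) or erythroid cells (-0.46) passed.

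**Figure D4:**
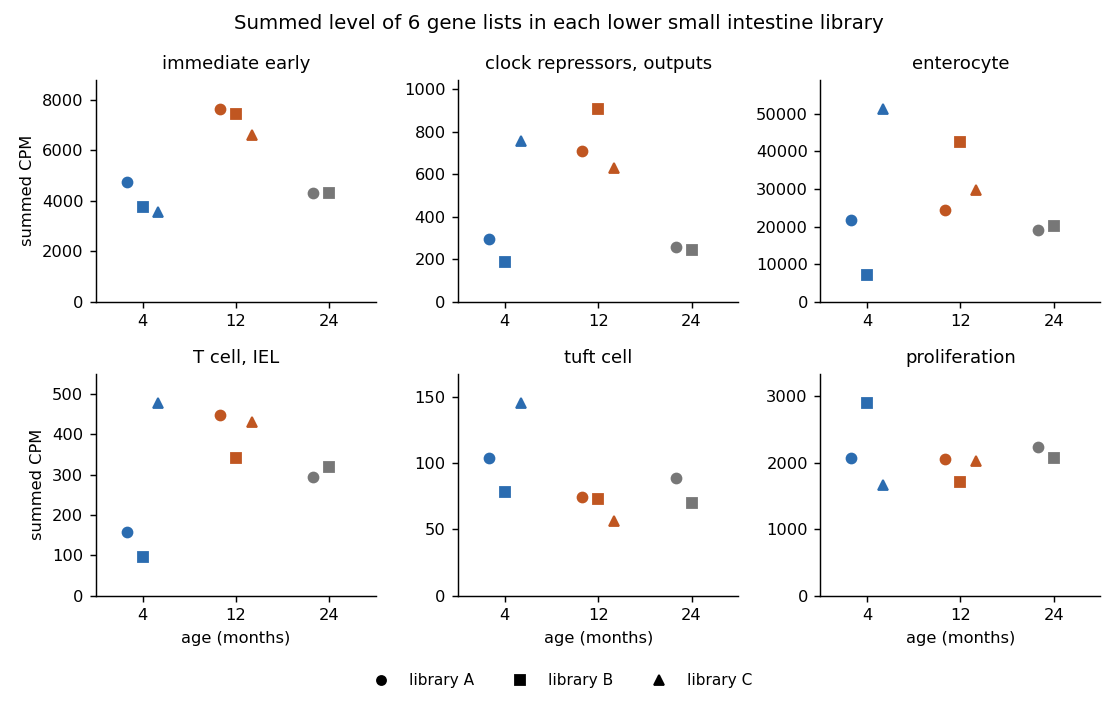
Summed CPM of 6 gene lists in each LSI library at 4, 12 and 24 months (IEL, intraepithelial lymphocyte), with axes from 0 and the marker shape giving the library letter. The immediate early genes separate the ages, whereas for the clock, enterocyte and T cell lists the 4-month library C lies with or above the 12-month libraries.

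The circadian clock differed between the libraries of 4 months. Its activators Arntl and Clock drive the Per, Cry, Nr1d and Dbp genes, which repress them in turn or pass the rhythm on, and their levels follow the time of day. Dbp, an output gene, had 2.51, 0.636 and 51.9 CPM in the 4-month libraries A, B and C and 27.4, 47.6 and 23.3 CPM in the 12-month libraries. Arntl had 56.1, 66.2 and 18.3 CPM at 4 months and 27.1, 19.7 and 27.6 CPM at 12 months. In both genes the 4-month library C lay with the 12-month libraries or beyond them, and A and B stood apart. The difference in Dbp between the ages was smaller than the spread within 4 months (log2 fold change 0.84, standard error 1.30, edgeR adjusted p = 0.982). The 24-month libraries had 1.41 and 1.02 CPM of Dbp.

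Of 13 clock repressors and outputs, 12 had positive log2 fold changes, with a median of 0.84, and 0 passed. In 3 of the 13 (23.1%, against 3.68% of all genes), Bhlhe40, Per1 and Gm129, the 12-month libraries all lay higher, the 4-month library C included. Per1, a repressor gene that also responds to acute signals, had 21.4, 22.0 and 36.5 CPM at 4 months and 54.5, 74.6 and 54.7 CPM at 12 months (log2 fold change 1.20, edgeR adjusted p = 0.691). Bhlhe40, another repressor gene, had 88.6, 74.1 and 104 and 150.0, 161 and 122 CPM (log2 fold change 0.70, edgeR adjusted p = 0.464). Nr1d1, the REV-ERB alpha gene, overlapped, with 95.7, 26.2 and 214 and 212, 248 and 195 CPM, as did Per2, with 17.2, 15.7 and 52.5 and 35.8, 57.4 and 38.2 CPM. Among the 4-month libraries, 16 of the 24 immediate early genes were highest in A, 3 in B and 5 in C, the library with the highest Dbp (Egr3, Jund, Klf4, Klf6 and Socs3), and 14 were lowest in C, 8 in B and 2 in A. The part of the clock state in the immediate early values was not tested.

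The E-box CACGTG, through which the clock activators act, was found in 5 of the 11 clock repressors and outputs with a RefSeq window (45.5%) and in 6.86% of all genes with a window. Gm129, known as Ciart, a repressor of the activators, holds 3 of them within 90 bases, which are shown in capitals because no other list member had more than 1 in a window. It had 0.773, 1.27 and 4.33 CPM at 4 months and 6.1, 8.54 and 5.97 CPM at 12 months (log2 fold change 1.70, edgeR adjusted p = 0.982).
Gm129, chr3:95882261-95882350, minus strand, build GRCm38.p6: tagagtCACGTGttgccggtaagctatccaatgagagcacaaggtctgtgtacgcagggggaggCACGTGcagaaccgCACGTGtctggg

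In cholesterol synthesis 0 of 15 genes passed. All 15 had positive log2 fold changes, between 0.06 and 0.31, with a median of 0.20. In 6 of the 15 (40%, against 3.68% of all genes) the 12-month libraries all lay higher, the other 9 overlapped between the ages, and 4 had an unadjusted p under 0.05, as 2.15% of all genes had in this direction. Cyp51, a demethylase gene of the pathway, had 124, 149 and 129 CPM at 4 months and 161, 171 and 166 CPM at 12 months (log2 fold change 0.31, edgeR adjusted p = 0.982).

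Genes that place, read or remove DNA methylation, the subject of the study, overlapped between the ages. Of 13 genes, 0 passed, 0 were without overlap, and the median log2 fold change was -0.05. Dnmt1, the maintenance methyltransferase gene, had 153, 197 and 109 CPM at 4 months and 139, 116 and 134 CPM at 12 months (log2 fold change -0.24, 95% confidence interval -0.64 to 0.16, edgeR adjusted p = 0.982). For the de novo enzymes Dnmt3a and Dnmt3b the log2 fold changes were -0.11 (95% confidence interval -0.31 to 0.08) and -0.37 (-0.81 to 0.07), and for Uhrf1, the partner of Dnmt1, -0.26 (-0.72 to 0.20). The demethylation genes Tet1, Tet2 and Tet3 had -0.05 (-0.78 to 0.68), 0.02 (-0.34 to 0.37) and 0.12 (-0.08 to 0.31). The imprinted noncoding RNAs Meg3 and Rian were low at both ages, with 0.469, 0.212 and 0.991 and 0.331, 0 and 0.0901 CPM at 4 months and 0.575, 0.436 and 1.31 and 0.173, 0.0623 and 0.686 CPM at 12 months.

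**Figure D5:**
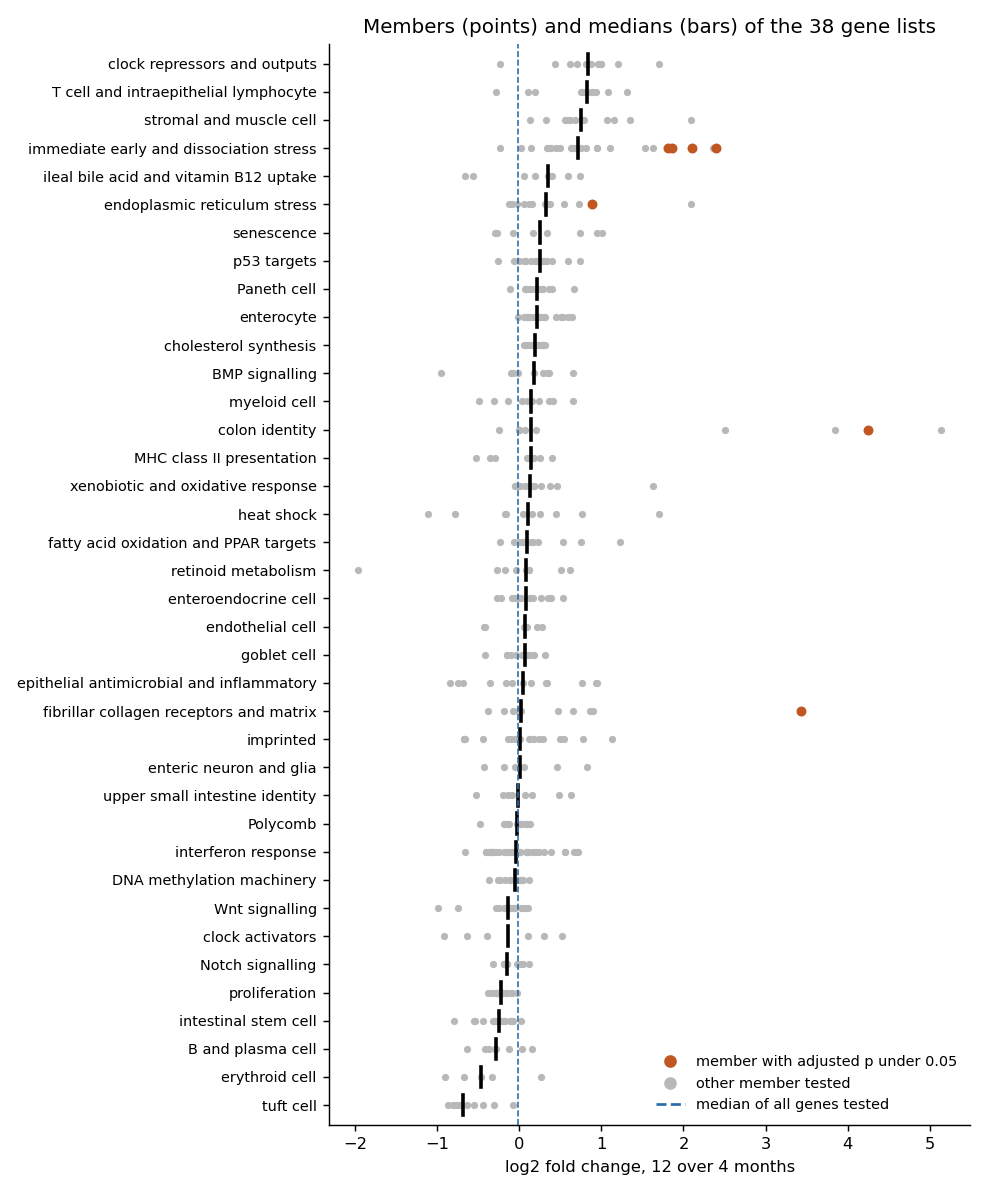
Log2 fold change at 12 months over 4 months of the tested members of 38 gene lists (points) with the list median (black bar), ordered by median. The 7 members that passed the test are orange and lie in 4 lists, and the dashed line marks the median of all genes, -0.01.

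The 7 genes named above that belong to a list lie in 4 of the 38 lists, and in the other 34 lists 0 members passed. Among these were the interferon response (38 genes tested, median -0.04), MHC class II presentation (0.14), senescence (0.25), p53 targets (0.25), Wnt signalling (-0.14), Notch signalling (-0.15), BMP signalling (0.19) and Polycomb genes (-0.03). In the BMP list, Id1, a target gene of the pathway, had 86.8, 100.0 and 124 CPM at 4 months and 171, 150.3 and 166 CPM at 12 months without overlap (log2 fold change 0.65, edgeR adjusted p = 0.924). Of the senescence list, Gdf15, a stress-induced cytokine gene, had 2.93, 2.09 and 2.73 and 4.43, 4.4 and 4.17 CPM (log2 fold change 0.75, edgeR adjusted p = 0.982), and Il6, Ccl2 and Mmp3 were at 0 in all 6 libraries. Gata4, a gene of the upper small intestine list, had 117, 95.2 and 120.0 CPM at 4 months and 89.3, 116 and 106 CPM at 12 months. In the 6 USI libraries of the same ages it was higher, with 223 to 247 CPM. The chemokine receptor gene Ccr2 had 0.607, 0.371 and 0.24 CPM at 4 months and 0.46, 0.966 and 0.514 CPM at 12 months.

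The genes that were lower at 12 months and followed Rps4y2 by p did not pass. Zfpm1, a cofactor gene of GATA factors, had 77.0, 77.3 and 69.2 CPM at 4 months and 49.8, 60.6 and 50.3 CPM at 12 months (log2 fold change -0.48, edgeR adjusted p = 0.306). The X-linked genes Tspan6 and Gspt2, a translation termination factor gene, had log2 fold changes of -0.92 and -1.61 (edgeR adjusted p = 0.503 and 0.443). Tspan6 had 4.03, 4.08 and 3.85 CPM at 4 months and 2.42, 2.12 and 1.77 CPM at 12 months. The others were 4930529M08Rik, 5730507C01Rik, Dclk1, Zfp37, Gm12444, Hmx3, Ngrn and Sh2d7, with edgeR adjusted p from 0.261 to 0.691.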

How the data were processed

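Read counts per gene of the build mm9 were deposited, and the authors had produced them with featureCounts 2.0.0, per the file headers, with no strand setting and with both reads of a pair added to the count. The paper's methods name trimmomatic, STAR and edgeR, and TopHat2, HTSeq and Cuffdiff stand in the submitters' processing notes. The deposited counts entered the analysis unchanged. Without strand, a gene and its antisense partner cannot be told apart. Symbols came from the reference annotation for 37310 of 37681 genes, and 521 of 524 members of 38 gene lists were matched.

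The low-count filter was filterByExpr of edgeR, given the 9 combinations of section and age. TMM factors were 0.914 to 1.129. All 24 libraries entered one quasi-likelihood model with a coefficient for each group, in edgeR 4.0.16 and R 4.3.3 (15 residual degrees of freedom, prior degrees of freedom 3.43, biological coefficient of variation 22.1%), and the contrast was tested two-sided with Benjamini-Hochberg adjustment over all genes tested. Intervals and standard errors refer to fitted log2 fold changes. An exact permutation test of 3 against 3 libraries cannot give a p below 0.1 and was not used. Lists were described by counts and medians, with no test of a list.

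The named genes are those that passed, the next by p up to 12 higher and 12 lower, up to 4 members with the smallest p of each list described, and Lgr5, Olfm4, the Dnmt and Tet genes, Uhrf1, Rps4x, Ccr2, Gata4, Dbp, Arntl, Per2, Nr1d1, Lyz1, Fabp6, Slc10a2, Fgf15, Meg3 and Rian. Further genes, among them Myc, Btg2, Hspa5, Ddr1, Tgm3, Gm129, Gzmb, Sis, Col1a1, Col3a1, Myh11 and the insulin genes, were picked once their values were known. The members and lists were chosen with earlier results of these data known. The steps were tested on simulated data. The letters A, B and C were not taken to pair the ages, since correlations of deviations from the group means were 0.036, -0.184 and -0.084 for equal letters. The alternatives are named in the closing section, and the fit without the 4-month colon library B was chosen after seeing the data. Promoter windows came from RefSeq (GRCm38.p6), figures from matplotlib 3.10.9. DNA methylation was not analysed here.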

Additional observations from a re-analysis of the deposited data

How the results depend on the processing

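The 9 genes higher and 1 lower, the 4 immediate early genes and the 7 genes of any list that passed stayed within 1.5 times those numbers with RLE size factors, no low-count filter, a filter of 1 CPM in 3 libraries, counts divided by 2 and without the 4-month colon library B. The likelihood ratio test called 34 higher and 6 lower (11 in lists), and DESeq2 1.42.0 called 33 and 3 (12 in lists, 7 immediate early). At an adjusted p under 0.01, 1 gene was higher, 0 were immediate early and 1 was in a list, and at 0.2, 14 were higher. The 8 LSI libraries alone gave 5 higher and 0 lower (4 in lists), and the 6 libraries alone gave 1 and 0 (0 in lists, 0 immediate early). With a replicate block by letter, which the labels do not describe as a shared batch and the data did not bear out, 0 were higher and 0 lower, with 0 in lists and 0 immediate early, against 321 genes at an unadjusted p under 0.05. Without the B libraries at 4 and 24 months, 0 were higher, 0 in lists and 0 immediate early. Leaving out 1 of the 6 libraries gave 0 to 4 higher, 1 to 2 lower, 0 to 1 immediate early and 0 to 3 in lists. When the 4-month library C was left out, 2536 genes had an unadjusted p under 0.05, against 720 with all libraries, and 1 passed. The causes were not tested. All 10 genes kept their direction throughout. Depth limits Ddr2, Fosl1, Des, Myh11, Hspb1, Aqp8 and the hindgut genes, which rest on few counts.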

Other observations

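The insulin genes Ins1 and Ins2, which were chosen after their values were seen, had 840 and 1968 counts in the 12-month library C and 0 in the other 5 libraries. The 24-month libraries held 80 and 108 counts of Ins1 and 698 and 782 counts of Ins2. Iapp, which encodes the amyloid peptide that beta cells release with insulin, had 243 counts in the 12-month library C and 20 to 36 in the other 5. Genes of the exocrine pancreas were close to 0 in all 6 libraries, with at most 24 counts of Ctrb1, 18 of Cpa1 and 17 of Cela2a, each in the 12-month library C. Glucagon and somatostatin transcripts, which enteroendocrine cells of the gut also make, were present in all 6 libraries, with 1716 to 3396 counts of Gcg and 700 to 1199 counts of Sst, and the 12-month library C lay inside both ranges. The test gave no call to Ins1 or Ins2 with edgeR's quasi-likelihood fit, whereas DESeq2 called both, on the counts of 1 library.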
